A study of Homo sapiens with 6 samples.

Results

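The 43 genes described here encode the human machinery of homologous recombination, the Fanconi anemia pathway and part of mismatch repair, together with the kinases and chromatin factors that act with them at broken DNA. They were taken by name from the 33841 genes of the count table, and all 43 were among the 17144 genes with enough counts to be tested. The cells were LN229, an established human glioblastoma line grown without any drug or irradiation in MEM medium with 10% fetal bovine serum and 1% gentamicin. The parental line, WT-PARP3+/+ (WT), was compared with PARP3-/- cells, which were made from it with CRISPR/Cas9 to disrupt PARP3, an ADP-ribosyltransferase that acts at DNA breaks. Each genotype had 3 RNA-seq libraries, described as biological replicates. PARP3-/- lines were derived as single-cell clones and the sources used here do not name the clone sequenced, so the genotype and the clone cannot be told apart.

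Homologous recombination repairs double-strand breaks and broken replication forks by copying an intact sister chromatid. The ends are resected to single strands, which are made ready with the help of BRCA1, PALB2 and BRCA2 and then invade the sister. The Fanconi pathway unhooks DNA crosslinks by monoubiquitination of the FANCD2-FANCI pair and hands the lesion to recombination, whereas mismatch repair removes replication errors. Many of these genes are transcribed mainly in cells that replicate their DNA, so their RNA is also known as a readout of the cycling fraction of a culture.

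Library totals lay between 29692065 and 46010369 counts. PARP3 itself was at 34.9, 22.4 and 24.3 CPM (counts scaled to the size of the library, TMM-adjusted) in WT and at 19.1, 22.5 and 19.5 CPM in PARP3-/-. The genotypes overlapped for this gene, with a log2 fold change (PARP3-/- over WT) of -0.42 ± 0.18 (SE, edgeR adjusted p = 0.307). With the replicate block explained with the genotype comparison it was called lower (-0.39 ± 0.13, adjusted p = 0.0469), but not when replicate 1 was also left out (-0.15, adjusted p = 0.112). A gene-level count also covers exons outside the disrupted part, so the libraries are named by their labels. The mesenchymal and neural markers VIM, NES, CD44 and SOX2 were well detected, whereas the astrocyte marker GFAP never exceeded 17 counts, SOX9 never exceeded 1 count and CHI3L1 never exceeded 3 counts in any library. The leukocyte marker PTPRC, the endothelial marker PECAM1 and the epithelial marker EPCAM stayed at or under 4 counts, whereas CD68 reached 16 counts and the endothelial VWF 26 counts. The neuronal marker SYT1 was detected throughout and reached 108 CPM in WT replicate 1. Of 8 glial and glioblastoma markers tested, 1 was called lower by genotype alone (S100B, mean 194 CPM in WT and 93.1 CPM in PARP3-/-), against 3.33% of all tested genes. With the replicate block 4 were lower (S100B, OLIG2, SOX2 and CD44) and 0 higher, against 12.5% and 11.8%. With the block and without replicate 1, 4 were lower and 2 higher, against 15.4% and 14.5%. Of 4 tested markers of other cell types, MBP was higher with the block (mean 6.24 and 8.95 CPM), against 11.8% of all tested genes.

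Levels were compared between genes as CPM per kilobase of the canonical transcript. In WT, H2AFX, the histone variant phosphorylated around breaks, was the most abundant at 102 ± 36.3 CPM per kb (SD, n = 3), ahead of the mismatch sensor MSH6 at 58.7 ± 16.9 and FANCI at 50.5 ± 11.6. The 1 SD ranges of H2AFX and MSH6 overlapped, as did those of MSH6 and FANCI. These genes were read in the same libraries and were all lowest in replicate 1. The overlap therefore does not tell whether their levels differed, which was not tested. FANCL, the ubiquitin ligase of the Fanconi core complex, followed at 36.0 ± 1.51 CPM per kb, and the exonuclease EXO1 stood at 31.0 ± 12.6. At the low end were RAD50, the ATPase of the MRE11 complex, at 0.689 ± 0.103 CPM per kb, and ATRIP, the partner of the ATR kinase, at 0.114 ± 0.0265. These low values are uncertain, because reads that overlap more than 1 gene are set aside in counting. RAD50 shares 76.9% of its exon bases with another annotated gene on the same strand, and ATRIP shares 26.7% of them with TREX1.

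**Figure D1:**
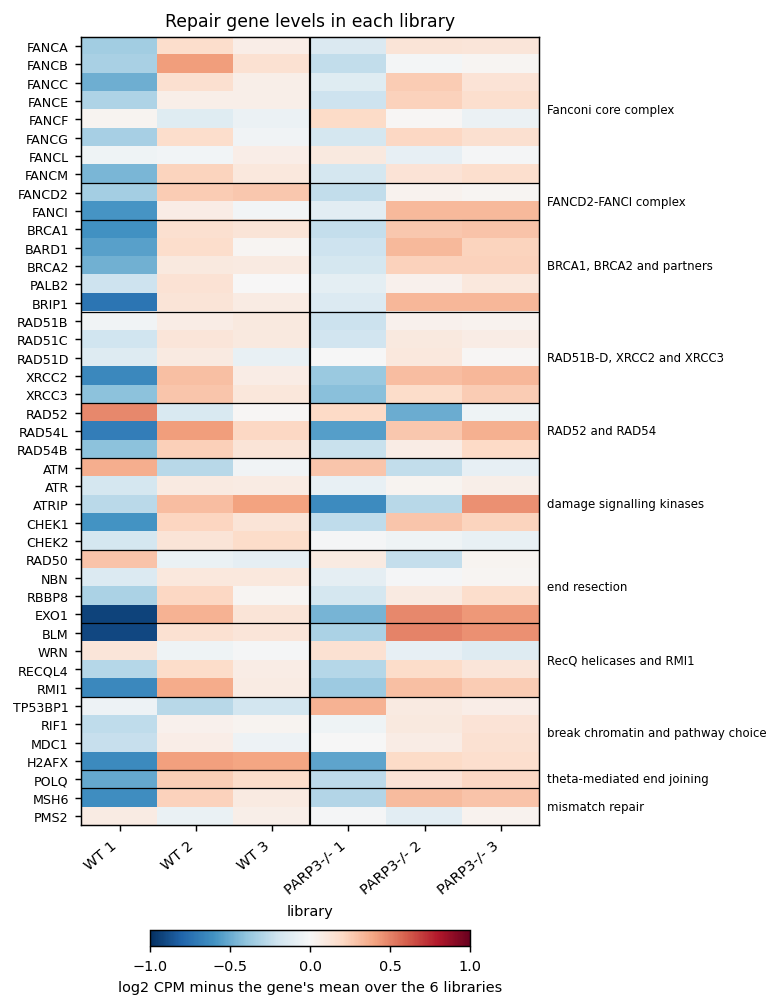
Level of each of the 43 repair genes in each library. Rows are genes grouped by role, columns are the 3 WT and 3 PARP3-/- libraries, and colour gives log2 CPM minus the mean of the gene over the 6 libraries. The replicate 1 columns of both genotypes are blue for most genes, with EXO1 and BLM lowest in WT replicate 1, while ATM and RAD52 show the opposite.

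The comparison of PARP3-/- with WT asked whether loss of PARP3 altered the RNA of this repair machinery. Tested by genotype alone, no member differed at an adjusted p under 0.05, with 0 lower and 0 higher by edgeR, against 3.33% lower and 1.36% higher among all tested genes. At an unadjusted p under 0.05, edgeR and DESeq2 each gave 0 lower and 1 higher, TP53BP1, where edgeR had 9.03% lower and 7.23% higher over all tested genes. DESeq2 also gave 0 members in either direction after adjustment, against 5.09% lower and 3.15% higher of all tested genes. The log2 fold changes ran from -0.24 for ATRIP to 0.40 for BLM, with a median of 0.05 beside -0.01 over all tested genes. Of the 43, 30 were above 0, against 8354 of the 17144 tested genes. The smallest adjusted p was 0.157, and the median standard error of a member was 0.183.

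The replicate number carried much of that spread. Libraries of the same number deviated together from their genotype means (r = 0.832, 0.759 and 0.451 over 13770 genes). So did WT replicate 2 with PARP3-/- replicate 3 (r = 0.653) and WT replicate 3 with PARP3-/- replicate 2 (r = 0.415). Between replicate 1 and another number r ran from -0.826 to -0.503. Replicate 1 was thus set apart, while matching by number between replicates 2 and 3 was less clear. The genotypes were also compared within replicate numbers, by a replicate block in the edgeR fit. The block brought the median standard error of the members to 0.0613. It called 9 of the 43 higher in PARP3-/- (20.9%) and 0 lower, against 11.8% higher and 12.5% lower among all tested genes, and gave 14 higher and 1 lower at an unadjusted p under 0.05, where all tested genes had 17.5% higher and 17.9% lower. The 9 genes were BLM, TP53BP1, FANCI, BRIP1, EXO1, BARD1, BRCA1, MSH6 and BRCA2, with fold changes between 1.14 and 1.34. The median log2 fold change was 0.06 with the block, beside -0.00 over all tested genes. Leaving out replicate 1 of both genotypes kept 8 of the 9, all but BRCA2, and added 4 lower genes, against 14.5% higher and 15.4% lower in the background. Without replicate 2, 8 of the 9 were called higher, again all but BRCA2, and XRCC2 was added, against 6.52% higher and 7.89% lower in the background. Without replicate 3 there were 5 of the 9, namely BLM, TP53BP1, FANCI, BRIP1 and EXO1, against 6.77% higher and 8.18% lower.

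**Figure D2:**
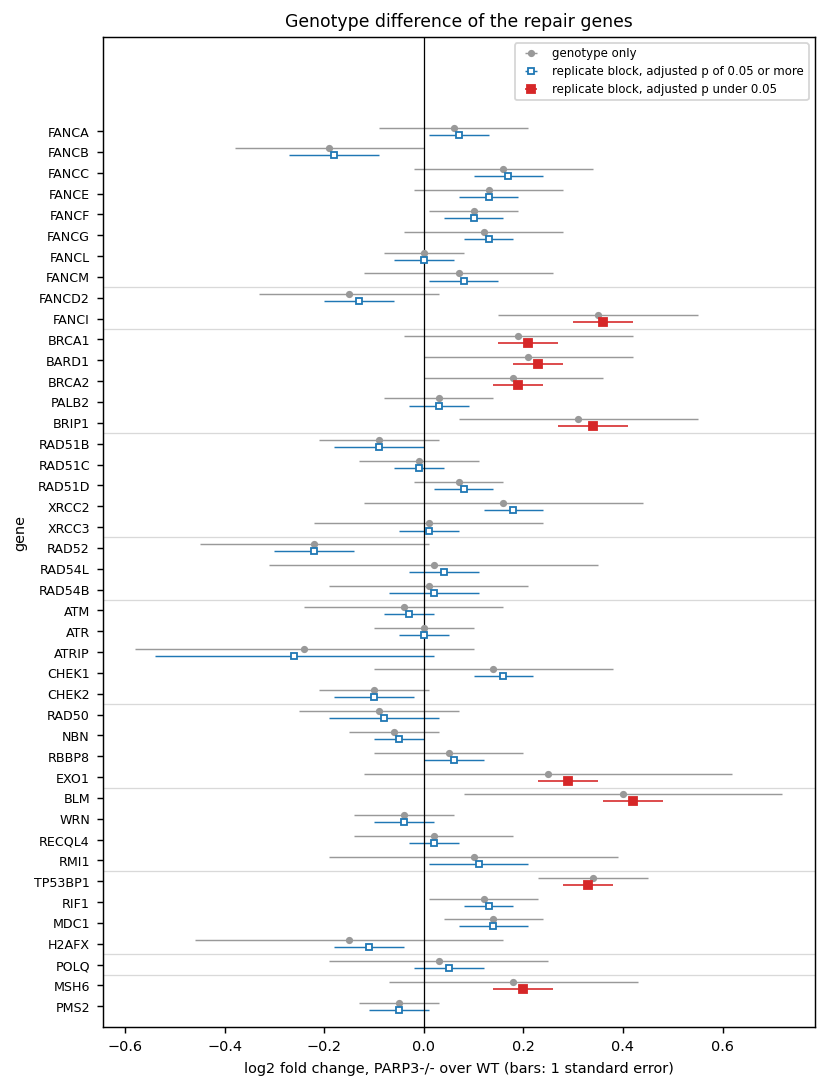
Genotype difference of each repair gene. The horizontal axis is the log2 fold change of PARP3-/- over WT with bars of 1 standard error, grey circles are the fit by genotype only, and squares are the fit with the replicate block, filled red where the adjusted p was under 0.05. The 9 red squares all lie to the right of 0, between 0.19 and 0.42, and the grey bars are wider than the block bars for most genes.

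BLM, the RecQ helicase that dissolves recombination intermediates and is lost in Bloom syndrome, had the largest log2 fold change in both fits with all libraries. Its levels were 38.1, 79.3 and 77.5 CPM in WT and 57.3, 101 and 98.0 CPM in PARP3-/-. Each PARP3-/- library was above the WT library of its number, but the lowest PARP3-/- value lay below 2 of the WT values. The log2 fold change was 0.40 ± 0.32 by genotype alone (edgeR adjusted p = 0.658) and 0.42 ± 0.06 with the block (adjusted p = 0.000445). With only WT replicate 1 left out, the value by genotype alone was 0.13, below the 0.40 of TP53BP1. PARP3-/- replicate 1 then had no partner, and without replicate 1 of both genotypes BLM stood at 0.35 and TP53BP1 at 0.30. The other members of this group, the helicases WRN and RECQL4 and the BLM partner RMI1, were not called in either fit, with block log2 fold changes of -0.04, 0.02 and 0.11.

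TP53BP1, which protects broken ends from resection and steers them to end joining, was the only member whose genotypes did not overlap. It was at 137, 117 and 125 CPM in WT and at 180, 151 and 148 CPM in PARP3-/-, and non-overlap in that direction was seen in 10.8% of all tested genes. Non-overlap on the lower side was seen in 0 members, against 12% of all tested genes. Its log2 fold change was 0.34 ± 0.11 by genotype alone (edgeR adjusted p = 0.157) and 0.33 ± 0.05 with the block (adjusted p = 0.00081). TP53BP1 shares 28.8% of its exon bases with TUBGCP4 on the opposite strand, and the sources used here do not state whether counting used strand. In the same group, its effector RIF1 stood at block log2 fold changes of 0.13 ± 0.05 (adjusted p = 0.121) and the scaffold MDC1 at 0.14 ± 0.07 (adjusted p = 0.163).

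FANCI and FANCD2 form the clamp that the Fanconi core complex ubiquitinates. FANCI was at 176, 280 and 261 CPM in WT and 247, 332 and 332 CPM in PARP3-/-, higher in every replicate pair, with a log2 fold change of 0.35 ± 0.20 by genotype alone (edgeR adjusted p = 0.484) and 0.36 ± 0.06 with the block (adjusted p = 0.00113). FANCD2, chosen for description after its values were seen, was at 79.2, 120 and 121 CPM in WT and 84.6, 103 and 102 CPM in PARP3-/-. The replicate 1 pair was higher in PARP3-/- and the other pairs were lower, giving -0.13 ± 0.07 with the block (edgeR adjusted p = 0.196). Without replicate 1 it was called lower, at -0.24 (adjusted p = 0.0099). Whether FANCI and FANCD2 differed from each other in their response was not tested. None of the 8 core complex genes was called in either fit with all libraries, although 7 of them had values above 0. By genotype alone 8354 of all 17144 tested genes were above 0. FANCF, an adaptor of the core complex, is the example with the smallest p by genotype alone, at 32.9, 29.6 and 31.0 CPM in WT and 36.8, 32.4 and 31.0 CPM in PARP3-/- (log2 fold change 0.10 ± 0.09).

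Among BRCA1, BRCA2 and their partners, 4 of 5 were called higher with the block and none by genotype alone. Of all tested genes 11.8% were higher with the block and 1.36% by genotype alone. BRIP1, the helicase bound by BRCA1, was at 39.7, 72.1 and 69.9 CPM in WT and at 59.9, 83.1 and 82.9 CPM in PARP3-/-, with a block log2 fold change of 0.34 ± 0.07 (edgeR adjusted p = 0.00564). BARD1, the obligate partner of BRCA1 in its ubiquitin ligase, was at 54.5, 89.7 and 80.3 CPM against 68.7, 99.5 and 92.4 CPM (0.23 ± 0.05, adjusted p = 0.0102). In both genes every pair was higher in PARP3-/-, and the spread between replicate 1 and the other libraries was larger than the genotype difference.

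BRCA1 was at 79.0, 134 and 131 CPM in WT and 102, 145 and 146 CPM in PARP3-/-, with a block log2 fold change of 0.21 ± 0.06 (edgeR adjusted p = 0.0238). BRCA2, which acts on resected single strands, was at 35.6, 53.1 and 52.8 CPM against 44, 58.3 and 58.1 CPM (0.19 ± 0.05, adjusted p = 0.0293). PALB2, which bridges them, was not called (0.03 ± 0.06, adjusted p = 0.766). By genotype alone the adjusted p of these 5 genes ran from 0.637 for BRIP1 to 0.956 for PALB2.

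The group of RAD51B, RAD51C, RAD51D, XRCC2 and XRCC3, which assist strand invasion, and the group of RAD52, RAD54L and RAD54B, which anneal and remodel strands, held no called gene. XRCC2 came closest with the block (0.18 ± 0.06, edgeR adjusted p = 0.0646), and RAD51D was at 28.9, 33.6 and 30.0 CPM in WT and at 31.5, 33.9 and 31.9 CPM in PARP3-/-. RAD52 was at 15.9, 10.3 and 11.5 CPM in WT and at 13.1, 8.1 and 11.1 CPM in PARP3-/-. It was 1 of only 3 members, with RAD51B and PMS2, that were lower in all 3 pairs, and its block log2 fold change was -0.22 ± 0.08 (edgeR adjusted p = 0.0841). XRCC3 and RAD54B values are uncertain, since XRCC3 shares 76.7% of its exon bases with KLC1 on the opposite strand and RAD54B 66.0% with FSBP on its own strand.

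Among the damage signalling kinases and their partner, ATM, ATR, ATRIP, CHEK1 and CHEK2, no gene was called with all libraries. CHEK2, an effector kinase of ATM, was at 25.8, 32.0 and 33.2 CPM in WT and at 28.9, 28.3 and 27.7 CPM in PARP3-/- (block log2 fold change -0.10 ± 0.08, edgeR adjusted p = 0.417). The WT replicate 1 value lay below all PARP3-/- values, and without replicate 1, where WT stood above PARP3-/-, CHEK2 was called lower at -0.22 (adjusted p = 0.0395). CHEK1, the effector of ATR, was at a block log2 fold change of 0.16 ± 0.06 (adjusted p = 0.0831).

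Of the end resection genes, EXO1, which degrades the recessed strand and also serves mismatch repair, was called with the block. It was at 58.3, 141 and 121 CPM in WT and at 79.9, 154 and 149 CPM in PARP3-/-, with a log2 fold change of 0.25 ± 0.37 by genotype alone (edgeR adjusted p = 0.841) and 0.29 ± 0.06 with the block (adjusted p = 0.00734). NBN, RAD50 and RBBP8 were not called, at -0.05, -0.08 and 0.06. POLQ, the polymerase of theta-mediated end joining, was at 39.3, 66.6 and 63.7 CPM in WT and at 46.8, 61.6 and 64.7 CPM in PARP3-/-, with a block log2 fold change of 0.05 ± 0.07 (edgeR adjusted p = 0.669).

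MSH6 and PMS2 were the mismatch repair genes among the members. MSH6 was at 169, 305 and 277 CPM in WT and at 212, 324 and 317 CPM in PARP3-/-, called with the block at 0.20 ± 0.06 (edgeR adjusted p = 0.0281) and not by genotype alone (adjusted p = 0.829), nor with the block and without replicate 3 (0.21, adjusted p = 0.114). MSH6 shares 22.7% of its exon bases with FBXO11 on the opposite strand. PMS2, the endonuclease subunit of the MutL complex, was not called (-0.05 ± 0.06, adjusted p = 0.569), and the difference between these genes was not tested.

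The widest contrast in these genes lay between replicate numbers. Replicate 1 was the lowest library in both genotypes for 34 of the 43 members (79.1%), against 32.3% of all tested genes, and the highest in both for 6, against 32.5%, namely FANCF, RAD52, ATM, RAD50, WRN and TP53BP1. EXO1 was 2.24-fold lower in replicate 1 than in the other replicates in WT and 1.89-fold lower in PARP3-/-. BLM, H2AFX and RAD54L were lower by 2.05-, 2.05- and 2.00-fold in WT and by 1.74-, 1.63- and 1.82-fold in PARP3-/-. Over the members the median log2 difference of replicate 1 from the others was -0.464 in WT and -0.317 in PARP3-/-, beside 0.012 and 0.00194 over all tested genes.

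A list of 35 replication and mitosis genes moved in the same direction, with replicate 1 the lowest in both genotypes in 35 of 35 and median log2 differences of -0.976 and -0.794. The replication clamp PCNA was at 175, 499 and 417 CPM in WT and at 196, 428 and 410 CPM in PARP3-/-. CCNE2, a cyclin of S phase entry, was at 22, 88.5 and 70 CPM against 29.3, 72 and 70.3 CPM. MKI67, a proliferation marker, was at 132, 214 and 217 CPM against 145, 176 and 170 CPM, and the mitotic topoisomerase TOP2A at 568, 882 and 888 CPM against 692, 778 and 750 CPM. In these 4 genes the replicate 1 library stood lowest in each genotype, and the genotypes overlapped.

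For the genotype, this list gave 0 lower and 0 higher by edgeR and by DESeq2 after adjustment, and 0 in either direction by either tool at an unadjusted p under 0.05. With the block it gave 6 higher (CDT1, UHRF1, MCM7, E2F1, MCM2 and MCM5; 17.1%, against 11.8% of all tested genes) and 0 lower (against 12.5%). Without replicate 1 it gave 1 higher (2.86%, against 8.91%) and 6 lower (17.1%, against 10.1%), and with the block and without replicate 1 it gave 6 higher (against 14.5%) and 8 lower (against 15.4%). Fewer cycling cells and less RNA of these genes per cell cannot be told apart in bulk RNA, and the part of the cycling fraction in the differences of the repair genes was not tested.

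**Figure D3:**
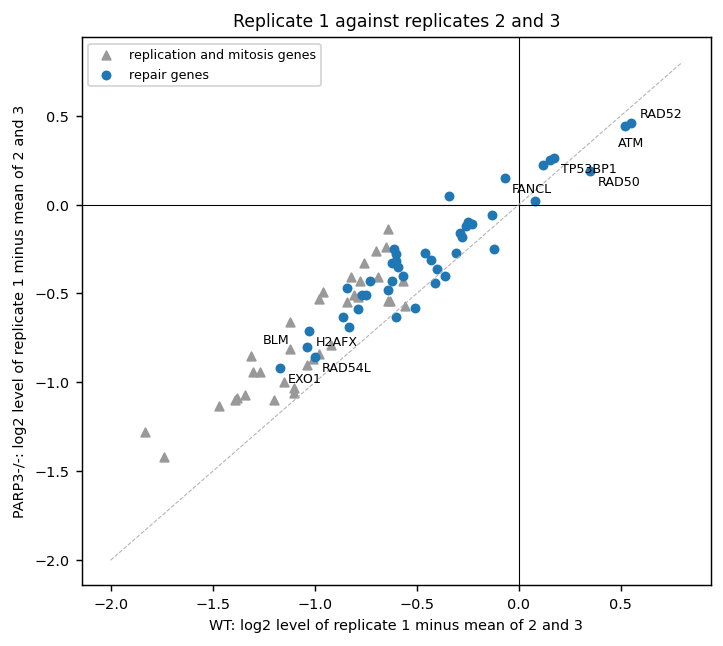
Difference between replicate 1 and the mean of replicates 2 and 3. Each point is a gene, with the log2 difference in WT on the horizontal axis and in PARP3-/- on the vertical axis, for the repair genes (blue circles) and the 35 replication and mitosis genes (grey triangles), and the dashed line marks equal differences. Most repair genes lie in the lower left quadrant, above the dashed line, and FANCF, RAD52, ATM, RAD50, WRN and TP53BP1 lie in the upper right.

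The genotype difference of the members was not the same in each pair. The median log2 difference of the members was 0.16 in the replicate 1 pair, with 36 of 43 above 0, but -0.03 in the replicate 2 pair, with 20 above 0, and 0.09 in the replicate 3 pair, with 29 above 0. In all 3 pairs 18 members were higher in PARP3-/-, against 27.1% of all tested genes, and 3 were lower, against 27.2%.

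Without replicate 1, the fit by genotype alone called 4 members higher, FANCI, BRIP1, BLM and TP53BP1, against 8.91% of the genes tested in that fit, and 4 lower, FANCB, FANCD2, CHEK2 and H2AFX, against 10.1%. H2AFX was at 95.5, 197 and 195 CPM in WT and at 103, 169 and 167 CPM in PARP3-/-, and FANCB, a core complex subunit, at 17.8, 29.7 and 24.8 CPM against 18.8, 22 and 22.6 CPM. In these genes the replicate 1 values of the genotypes lay close together while the other WT libraries stood above the other PARP3-/- libraries, so the genotype difference depended on that pair.

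Because the members moved together between replicates, the promoters of BLM, H2AFX and EXO1, which were among the lowest in replicate 1, are shown beside that of ATM, which was highest there (77.2, 49.5 and 58.5 CPM in WT and 73.0, 50.7 and 56.9 CPM in PARP3-/-). Each run holds 150 bases before and 20 bases from the RefSeq start on GRCh38.p14, 5′ to 3′ on the strand of the gene. Capitals mark CCAAT or its reverse complement ATTGG, the letters bound by NF-Y in many cell cycle promoters, or an E2F word (TTTGGCGC, TTTCCCGC, TTTGCCGC or TTTCGCGC, on either strand). The runs lie at chr15:90717196-90717365 (plus strand), chr11:119095446-119095615 (minus strand), chr1:241848054-241848223 (plus strand) and chr11:108222917-108223086 (plus strand).
BLM: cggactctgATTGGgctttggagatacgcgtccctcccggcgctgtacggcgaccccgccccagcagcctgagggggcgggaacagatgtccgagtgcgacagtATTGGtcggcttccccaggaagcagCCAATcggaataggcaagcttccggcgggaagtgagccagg
H2AFX: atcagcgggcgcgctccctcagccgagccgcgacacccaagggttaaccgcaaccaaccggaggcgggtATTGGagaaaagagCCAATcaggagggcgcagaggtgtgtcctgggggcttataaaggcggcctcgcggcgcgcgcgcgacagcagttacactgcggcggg
EXO1: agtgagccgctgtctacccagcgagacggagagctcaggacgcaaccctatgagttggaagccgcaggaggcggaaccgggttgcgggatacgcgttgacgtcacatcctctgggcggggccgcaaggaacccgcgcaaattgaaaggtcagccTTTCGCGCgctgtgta
ATM: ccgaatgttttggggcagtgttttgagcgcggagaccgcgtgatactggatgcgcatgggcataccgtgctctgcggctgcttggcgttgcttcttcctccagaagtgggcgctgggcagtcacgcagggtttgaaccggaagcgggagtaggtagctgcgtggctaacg

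BLM held 3 and H2AFX 2 CCAAT matches in this window, and EXO1 held 1 E2F word. ATM held neither within the 170 bases shown, although its 300-base promoter has 1 CCAAT match further upstream. The run of ATM does hold a CHR word of the kind counted below, TTTGAA, which is not marked by capitals. Of the other members highest in replicate 1, FANCF and TP53BP1 had CCAAT within the 150 bases before the start. RAD52 and RAD50 had no CCAAT match in their 300-base promoters, and WRN had no entry. Whether these words differ between members low and high in replicate 1 was not tested. Over promoters of 300 bases, 38 of the 43 members had an entry. An E2F word was present in 7 of the 38 (18.4%), against 703 of 15843 protein-coding promoters (4.44%) and 12 of 29 replication and mitosis genes (41.4%). CCAAT was present in 19 of the 38 (50%), against 36.4% of all promoters and 72.4% of the replication and mitosis genes. The CHR words TTTGAA and TTCGAA, on either strand, were in 7 of the 38 (18.4%). This compares with 13.5% of all promoters and 34.5% of the replication and mitosis genes. ATM and H2AFX were among the 7, with the word of ATM inside its run shown and that of H2AFX outside. BLM and EXO1 had no CHR word. These are matches of letters and not measured binding sites.

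The differences of the members were set beside those of nearby genes. For each member the median block log2 fold change of the other tested genes within 5 Mb on either side was taken, over 22 to 248 neighbours. Across the 43 members this median and the value of the member had r = 0.721, as a description, since members such as FANCI and BLM share neighbours, and 25 of the 43 had the sign of their neighbour median. Neither value, nor the neighbour counts below, was computed over all tested genes, so they are not shown to be particular to repair genes. BLM (chr15:90717327-90816165) and FANCI (chr15:89243949-89317261), on distal 15q, had neighbour medians of 0.21 over 60 genes and 0.22 over 72 genes. TP53BP1 (chr15:43403061-43510728), on the same arm, had 0.18 over 119 genes.

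EXO1 (chr1:241847967-241895148), BARD1 (chr2:214725646-214809711) and BRIP1 (chr17:61681266-61863521) had neighbour medians of 0.18, 0.13 and 0.10. BRCA1 (chr17:43044295-43170245), MSH6 (chr2:47695530-47810101) and BRCA2 (chr13:32315474-32400266) had 0.01, 0.01 and -0.01. Thus 6 of the 9 genes called with the block lay among neighbours that were themselves higher by 0.1 or more on the log2 scale, as did 8 of all 43 members. All 9 stood above their neighbours, by 0.09 to 0.24. They had been picked as higher in that same fit, so no conclusion is drawn from this. On the other side, FANCD2, RAD52 and ATRIP had neighbour medians of -0.26, -0.22 and -0.22 and were themselves below 0 without being called. The remaining member with a neighbour median of -0.1 or less, FANCF, was above 0 (0.10) among neighbours at -0.15. Copy number was not measured here, and its part in these differences was not tested.

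**Figure D4:**
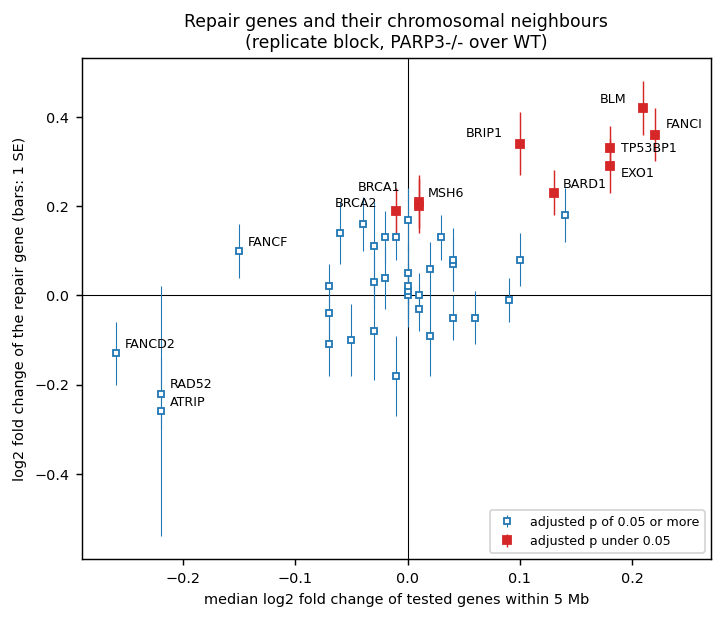
Each repair gene against its chromosomal neighbours. The horizontal axis is the median log2 fold change (PARP3-/- over WT, replicate block) of the tested genes within 5 Mb and the vertical axis that of the repair gene with bars of 1 standard error, red where the adjusted p was under 0.05. BLM, FANCI, TP53BP1, EXO1, BARD1 and BRIP1 lie at the upper right, BRCA1, MSH6 and BRCA2 lie near 0 on the horizontal axis, and FANCD2, RAD52 and ATRIP lie at the lower left.

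Of 63 other genes of these pathways, 62 were tested, and none was called by genotype alone (edgeR, 0 lower and 0 higher, with 2 lower and 2 higher at an unadjusted p under 0.05). DESeq2 called 1 lower, WDR48, a cofactor of the USP1 deubiquitinase that acts on FANCD2. WDR48 was at 100, 95.1 and 101 CPM in WT and at 83.6, 76.8 and 78.9 CPM in PARP3-/-, without overlap, with a log2 fold change of -0.31 ± 0.07 (edgeR adjusted p = 0.0659) and -0.31 ± 0.05 with the block (adjusted p = 0.000939). With the block 6 were lower and 6 higher, which is 9.68% in each direction against 12.5% lower and 11.8% higher among all tested genes.

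CENPX, a DNA-binding partner of FANCM, was higher with the block, at 67.5, 83.4 and 74.6 CPM in WT and 77.6, 101 and 96.8 CPM in PARP3-/- (0.29 ± 0.05, edgeR adjusted p = 0.00238), and its neighbour median was 0.18. PMS1, a MutL subunit, was at 51.7, 46.8 and 46.8 CPM in WT and at 60.1, 53.8 and 53.3 CPM in PARP3-/-, without overlap (0.20 ± 0.05, adjusted p = 0.013). Of these other pathway genes 3.23% were lower and 4.84% higher without overlap, against 12% and 10.8% of all tested genes.

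On the lower side, RAD18, a ubiquitin ligase of damage tolerance, was at 47.5, 71.9 and 73.9 CPM in WT and at 43.6, 53.9 and 56.9 CPM in PARP3-/- (-0.31 ± 0.06 with the block, edgeR adjusted p = 0.00436). NABP2, a single-strand binding protein, was at 51.4, 60.5 and 59.6 CPM against 44.1, 53.1 and 51.2 CPM (-0.21 ± 0.05, adjusted p = 0.0105). Their neighbour medians were -0.28 and -0.17. Of the 12 other pathway genes called with the block, 7 had neighbours moved by 0.1 or more in their own direction and 4 had a neighbour median within 0.1 of 0. The last, ZSWIM7, was higher (0.34) among neighbours at -0.12.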

How the data were processed

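Total RNA from 6 LN229 cultures was depleted of ribosomal RNA and made into stranded libraries, which were read from a single end. Per the labels, the submitters' processing notes name bcl2fastq 2.17.1.14, cutadapt 1.10, Bowtie2 2.2.8, STAR 2.5.3a, HTSeq 0.6.1p1 and DESeq2 1.16.1 with build hg38. The authors counted reads per gene (HTSeq, union mode, Ensembl 91) and deposited raw counts, which were used here. The other 12 columns of per-sample values and 3 columns of the authors' own comparison (fold changes and p-values) were not used.

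Genes passing a filter of 10 counts (filterByExpr) were tested in R 4.3.3 with edgeR 4.0.16, quasi-likelihood, TMM scaling, genotype only, as in the study's design, and Benjamini-Hochberg adjustment over all 17144 tested genes. A call is an adjusted p under 0.05. CPM are TMM-scaled, and pair and replicate differences are of log2(CPM + 0.1). Alternatives were DESeq2 1.42.0, other size factors, other filters, a stricter threshold, a replicate block and left-out libraries. The labels do not say what a replicate number shares, but same-numbered libraries deviated together in all 3 pairs. Replicates differed by more than sampling noise. Transcript lengths and overlaps came from GENCODE 44, and promoters from RefSeq (GRCh38.p14). The edgeR fits with and without the block were tested on simulated counts that held no shared replicate effect. Such counts cannot check the block where same-numbered libraries deviate together.

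Values in every library are given for members called in either fit, for the member with the smallest p in other role groups, for the 3 other pathway genes with the smallest p in each direction (1 is not reported here), and for MKI67, PCNA, TOP2A and CCNE2. The members and lists were chosen with earlier results of these data known. Neighbour medians, and the block with a replicate left out, were added after seeing the data.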

Additional observations from a re-analysis of the deposited data

How the results depend on the processing

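The counts of called members stayed at 0 in each direction with DESeq2, other size factors, no filter, a mean count of 50 and each single library left out. The stricter threshold was applied to the same main fit and could give no other count. With the replicate block 9 members were higher. Without replicate 1 there were 4 higher and 4 lower, and with the block and without replicate 1 there were 8 higher and 4 lower. With the block, 9 were higher without replicate 2 and 5 without replicate 3. The shares over all tested genes in these fits are given above.

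Other pathway genes counted 1 lower with DESeq2 (1.61%, against 5.09% of all tested genes). They counted 6 lower and 6 higher with the block (9.68% each, against 12.5% and 11.8%). Without replicate 1 there were 7 lower and 6 higher (11.3% and 9.68%, against 10.1% and 8.91%). With the block and without replicate 1 they counted 11 lower and 8 higher (17.7% and 12.9%, against 15.4% and 14.5%). With the block and without replicate 2 they counted 1 lower and 5 higher of 62, against 7.89% and 6.52% of all tested genes. With the block and without replicate 3 they counted 3 lower and 3 higher, against 8.18% and 6.77%.

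The median log2 fold change of the members ran from -0.04 (without WT replicate 1) to 0.16 when single libraries were left out, with 0.16 without WT replicate 2 and 0.15 without PARP3-/- replicate 1. Without WT replicate 1, EXO1 (-0.04), BRCA1 (-0.02), MSH6 (-0.04) and POLQ (-0.18) turned below 0, while BLM (0.13), FANCI (0.17), BRIP1 (0.08), BARD1 (0.03) and BRCA2 (0.01) shrank by more than 1.5 times. With other single libraries left out EXO1, BRCA1, MSH6 and POLQ reached at most 0.50, 0.34, 0.36 and 0.16. POLQ was also below 0 without PARP3-/- replicate 2 (-0.02) or 3 (-0.06), and without replicate 1 with or without the block (-0.05). A single library left out leaves the other library of its number without a partner. Without replicate 1 of both genotypes, EXO1, BRCA1 and MSH6 were above 0 by genotype alone (0.20, 0.13 and 0.14). The cause of these changes was not tested. With 3 libraries per genotype, p-values measure the spread between these libraries only.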
